A study of Mus musculus with 6 samples.

Results

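S100a8 and S100a9 encode the calprotectin subunits, and their unique molecular identifier (UMI) counts were followed through mouse livers at successive stages of colorectal cancer spread. The 2 genes were taken by symbol from the 31253 features of the count tables and read in every library and in every class of liver cell. The study profiled livers with the BD Rhapsody single-cell whole-transcriptome assay. It holds 6 libraries, 2 each of control, pre-metastatic niche and macro-metastatic niche livers. Cells came from whole livers after mincing, collagenase II digestion and sieving, with red cells lysed and dead cells taken out, so the tables hold immune and non-immune cells together. Control livers carry the genotype label ctrl, and the pre-metastatic and macro-metastatic livers are labelled as an orthotopic colorectal cancer model. The cell line CT26-GFP, a green fluorescent derivative of a mouse colon carcinoma line, is named for all 6 libraries, controls included. Strain, age and the time of sampling are not given in the labels, and nothing states that the libraries of a group came from separate animals.

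Calprotectin is a calcium-, zinc- and manganese-binding heterodimer that fills much of the neutrophil cytosol. It is released at sites of inflammation, starves microbes of metals and signals through Toll-like receptor 4 and the receptor for advanced glycation end-products. Neutrophils and their precursors and classical monocytes are its usual sources, while lymphocytes, endothelium and the resident liver macrophages, Kupffer cells, make little of it at rest. In mouse models, both proteins have been linked to the recruitment of myeloid cells to organs that tumour cells later colonise.

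S100a8 (ENSMUSG00000056054) lies on the forward strand at chr3:90668978-90670035 of GRCm38, the build known as mm10, and S100a9 (ENSMUSG00000056071) on the reverse strand at chr3:90692632-90695721. The genes are separated by 22596 bases, each has 3 exons in its first GENCODE M21 transcript, and neither transcript shares a 31-base stretch with another gene. Since the 2 transcripts moved together through most of these data, the sequences upstream of them are shown, from RefSeq on GRCm38.p6. The S100a8 sequence is chr3:90668821-90668977, forward strand, and ends where the longer GENCODE transcript begins. That of S100a9 is chr3:90695722-90695971, reverse strand, and ends at its RefSeq start. Capitals mark matches to the C/EBP motif TTNNGNAA and, in S100a8, the PU.1 motif GAGGAA, read on either strand.
S100a8: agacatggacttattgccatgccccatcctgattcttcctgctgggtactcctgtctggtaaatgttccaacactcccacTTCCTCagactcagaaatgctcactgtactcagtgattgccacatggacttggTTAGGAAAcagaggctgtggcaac
S100a9: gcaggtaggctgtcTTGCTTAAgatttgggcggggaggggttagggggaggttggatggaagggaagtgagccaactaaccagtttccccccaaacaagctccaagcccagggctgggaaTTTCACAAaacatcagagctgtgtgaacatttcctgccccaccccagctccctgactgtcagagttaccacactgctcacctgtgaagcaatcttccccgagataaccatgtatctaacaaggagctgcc
In windows of 300 bases, from 250 before to 50 after the RefSeq start and on both strands, TTNNGNAA occurred at -117 to -110 of S100a8 and at -236 to -229 and -130 to -123 of S100a9. It occurs in 40.7% of the 32851 promoter windows of that length. GAGGAA occurred at -170 to -165 and -36 to -31 of S100a8, was absent from the S100a9 window and is found in 28.3% of windows. TATAAA was present in both windows, at -30 to -25 of S100a8 but at 1 to 6 of S100a9, and in 13.6% of all. TGANTCA, the AP-1 motif, and TTCNNNGAA, a STAT motif, were found in neither, against 7.81% and 8.30% of all windows. A match describes letters and is not a bound site.

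The libraries held 41914149 to 90819751 UMIs over 71908 barcodes, and the median barcode held 4234 and 3302 UMIs in macro-metastatic libraries and 2412 to 2843 in the other 4. Of 69466 distinct barcode sequences 2404 occurred in more than 1 library. After filters on genes, mitochondrial share and predicted doublets, 9185 to 13670 cells per library remained, in 40 clusters made without S100a8 and S100a9. Clusters were named by marker genes, and a name such as neutrophil stands for neutrophil-like. Levels are UMIs of the gene per 1000000 UMIs of the same cells (CPM).

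Calprotectin transcripts rose in the liver as a whole. S100a8 stood at 69.7 and 86.5 CPM in controls, then 1060 and 334 at the pre-metastatic and 3414 and 2318 at the macro-metastatic stage. S100a9 stood at 103 and 125, 1056 and 495, and 3977 and 2885 CPM. The 3 groups did not overlap for either gene, and the first pre-metastatic library was above the second for both. With 2 libraries in a group such separation is no test, and how many other genes showed it was not counted. Between macro-metastatic and control livers the log2 change was 5.48 ± 0.63 (SE) for S100a8, at an adjusted p of 0.00268, and 5.19 ± 0.45 for S100a9, at an adjusted p of 0.00164, in edgeR's quasi-likelihood test with Benjamini-Hochberg adjustment over 16258 genes. In that comparison 40.5% of genes were called in either direction and 21.8% were called higher, so being called was common.

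From pre-metastatic to macro-metastatic livers the edgeR log2 change was 2.26 ± 0.54 (SE) for S100a8, adjusted p = 0.0326, and 2.36 ± 0.39 for S100a9, adjusted p = 0.0121, where 23.4% of genes were called and 13.2% were called higher. The S100a8 call was lost on leaving out control 1 (adjusted p = 0.0759), control 2 (0.0768), pre-metastatic 2 (0.0599) or macro-metastatic 1 (0.0919). From control to pre-metastatic livers neither gene passed, at 3.22 ± 0.56 (SE) on the log2 scale with adjusted p = 0.0715 and 2.83 ± 0.40 with adjusted p = 0.0586, and 0.431% of genes were called and 0.406% were called higher. Both passed there with DESeq2 (adjusted p = 4.67e-08 and 2.65e-10) and without a filter on low counts (0.0302 and 0.0189).

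Most of these UMIs sat in neutrophils. Of the S100a8 UMIs, 90.1% and 94.3% lay in neutrophils in controls, then 84.9% and 83.8% at the pre-metastatic and 84.5% and 91.8% at the macro-metastatic stage. Their share of S100a9 UMIs was 88.6% and 93.4%, 90.9% and 84.0%, and 89.4% and 93.1%. Thus the share stayed between 83.8% and 94.3% in all 6 libraries while the library levels moved. Monocytes and macrophages held 0.0879% and 0.0364% of S100a8 in controls, then 9.11% and 0.608% at the pre-metastatic and 7.91% and 2.42% at the macro-metastatic stage.

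**Figure D1:**
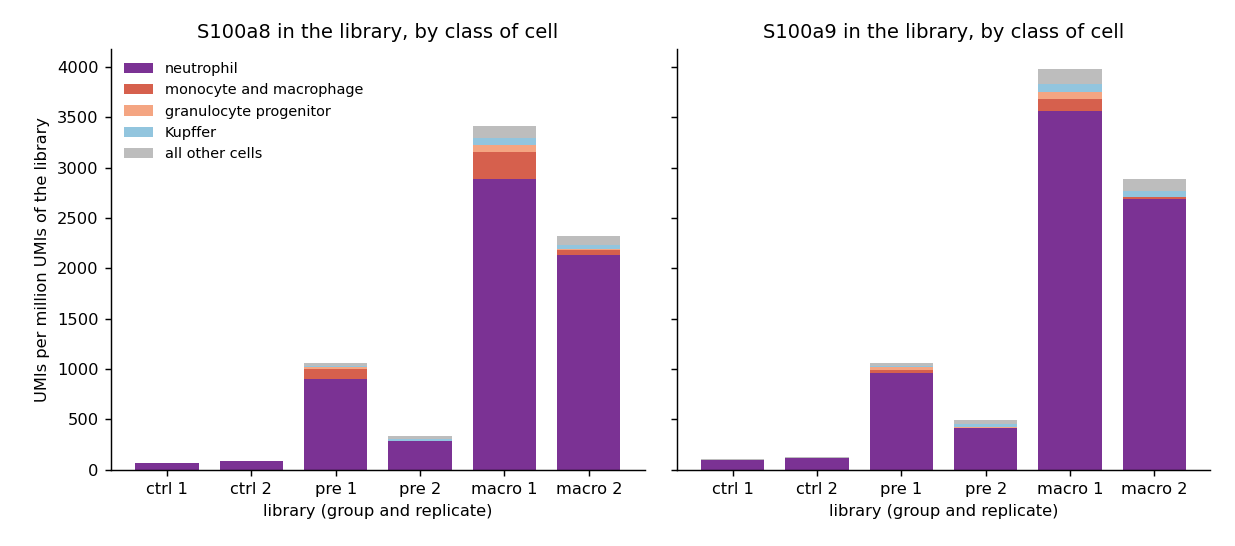
Level of S100a8 (left) and S100a9 (right) in CPM of each library (y axis), stacked by class of cell for the 6 libraries (x axis). Neutrophils make up 83.8% to 94.3% of every S100a8 bar, and the macro-metastatic bars reach 3414 and 2318 CPM against 69.7 and 86.5 in controls.

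The neutrophil contribution is the product of 2 quantities, the share of all UMIs that came from neutrophils and the level within them. Neutrophils gave 0.669% ± 0.319 (SD, n = 2) of library UMIs in controls, then 3.37% ± 1.45 at the pre-metastatic and 9.85% ± 1.69 at the macro-metastatic stage, that is 5.04 and 14.7 times the control mean. They were 1.26% and 2.25% of control cells, 13.5% and 8.96% of pre-metastatic cells and 30.4% and 26.6% of macro-metastatic cells. The level of S100a8 within neutrophils was 1.39 times the control mean in pre-metastatic and 2.18 times in macro-metastatic livers, and that of S100a9 was 1.18 and 1.89 times. The share of neutrophil UMIs moved by more than the level inside neutrophils in each case. Both shares depend on how well each cell type survives dissociation and capture, which was not tested.

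Within neutrophils, S100a8 reached 14135 and 9110 CPM in controls, then 20440 and 11941 at the pre-metastatic and 26107 and 24583 at the macro-metastatic stage. S100a9 reached 20444 and 13085, 21827 and 17725, and 32189 and 31046 CPM. Both macro-metastatic libraries lay above all others for both genes, while control and pre-metastatic libraries overlapped. The edgeR log2 change from control to macro-metastatic neutrophils was 1.23 ± 0.31 (SE) for S100a8, adjusted p = 0.0380, and 1.02 ± 0.26 for S100a9, adjusted p = 0.0390, where 9.59% of 7984 genes were called and 5.11% were called higher. Both calls were lost on leaving out control 1 (log2 changes 1.60 and 1.40, adjusted p = 0.0840 and 0.0674), control 2 (0.999 and 0.786, 0.257 and 0.253), macro-metastatic 1 (1.17 and 0.980, 0.0798 and 0.0776) or macro-metastatic 2 (1.31 and 1.08, 0.0630 and 0.0667). They were also lost with library size in place of TMM scaling (1.13 and 0.920, 0.0503 and 0.0579).

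From control to pre-metastatic neutrophils edgeR gave log2 changes of 0.57 ± 0.31 (SE) for S100a8, adjusted p = 0.686, and 0.33 ± 0.26 for S100a9, adjusted p = 0.778. That comparison called 0.00% of genes, with 615 of 7984 at an unadjusted p below 0.05 and 25 called by DESeq2. From pre-metastatic to macro-metastatic neutrophils the log2 changes were 0.66 ± 0.30 (SE), adjusted p = 0.210, and 0.69 ± 0.26, adjusted p = 0.124, neither called, where 10.1% of genes were called and 5.36% were called higher. With the replicate number as a block, fitted because same-numbered neutrophil libraries deviated together, these became 0.716 (adjusted p = 0.0375) and 0.702 (0.0347) and passed, while the number of genes called went from 806 to 1464.

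Nearly every neutrophil carried the transcripts. The share of neutrophils with no UMI of either gene was 2.59% and 0.881% in controls, then 0.954% and 1.29% at the pre-metastatic and 0.365% and 0.138% at the macro-metastatic stage. The median neutrophil held 236 and 178 UMIs of the pair per 10000 UMIs in controls, then 315 and 235 at the pre-metastatic and 451 and 497 at the macro-metastatic stage. In UMIs per cell, S100a8 averaged 17.7 and 11.4, 29.6 and 13.6, and 67.1 and 48.5. Neutrophils of the macro-metastatic libraries were also deeper, with medians of 2158 and 1856 UMIs per cell against 1060 to 1283.5 in the other libraries, so UMIs per cell carry that depth and the levels per 10000 do not. Across the cells of a library S100a8 and S100a9 followed each other, with Spearman rho of 0.783 and 0.677, 0.840 and 0.738, and 0.845 and 0.831, over 116 to 3632 neutrophils that share library and depth.

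**Figure D2:**
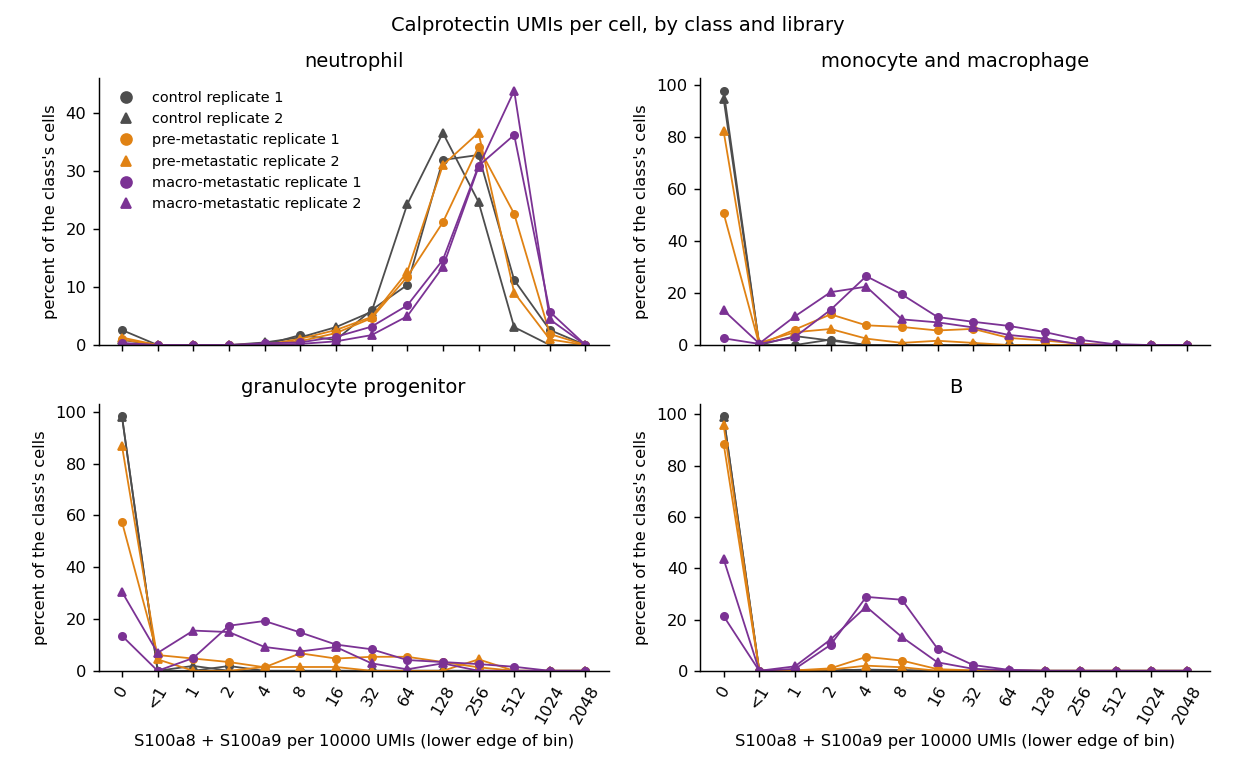
Percent of the cells of a class (y axis) by UMIs of S100a8 plus S100a9 per 10000 UMIs of the cell (x axis, lower edge of bin), with 1 line per library. Neutrophils lie at medians of 178 to 497, and the macro-metastatic lines lie to the right of the control lines.

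Neutrophils fell into 3 clusters that differed in calprotectin. The largest, with 6053 cells, was led by Csf3r, Il1r2, Cxcr2 and Il1b. The next, with 3454 cells, was led by Retnlg, Mmp8 and Ly6g. The smallest, with 322 cells, was led by Ngp, Camp and Ltf, which encode secondary granule proteins of immature neutrophils. Between the largest cluster and the next Cxcr2 was near equal (2008 and 1997 CPM), while Il1b was higher in the largest (13049 and 7625 CPM). S100a8 in the Csf3r cluster was 7717 and 7288 CPM in controls, then 10121 and 9091 at the pre-metastatic and 11070 and 12694 at the macro-metastatic stage. In the Retnlg cluster it was 28920 and 20411, 27646 and 23430, and 30629 and 32049 CPM. In the granule protein cluster it was 61205 and 41397, 52472 and 64132, and 56313 and 67482 CPM, where the controls held only 2 and 3 cells. In every library the order was the same, lowest in the Csf3r cluster and highest in the granule protein cluster.

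S100a9 followed the same order in each library and spanned less. It was 11931 to 20827 CPM over the libraries in the Csf3r cluster, 19637 to 38291 in the Retnlg cluster and 34412 to 58119 in the granule protein cluster. The S100a8 share of the pair's UMIs rose along that order, from 34.0% to 40.9% in the Csf3r cluster, through 44.5% to 51.0%, to 51.8% to 56.5%. These ranges over the 6 libraries did not overlap, and since the cells were clustered on their other genes they are a description with no test. UMI shares compare cells with each other here and do not give a ratio of transcripts.

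The mix of the 3 clusters also moved. The Csf3r cluster made up 87.9% and 94.3% of control neutrophils, 67.6% and 89.3% of pre-metastatic and 60.1% and 50.8% of macro-metastatic ones, and the Retnlg cluster 10.3% and 4.41%, 28.8% and 9.80%, and 33.8% and 48.0%. Levels recomputed with every library given the control mix of clusters were 10829 ± 1370 CPM (SD, n = 2) for S100a8 in controls, 13071 ± 474 in pre-metastatic and 15670 ± 1455 in macro-metastatic livers. The log2 ratio of macro-metastatic to control S100a8 went from 1.12 with each library's own mix to 0.53 with the control mix. For S100a9 it went from 0.92 to 0.56, with fixed-mix means of 16002 ± 3458 CPM in controls and 23538 ± 60 in macro-metastatic livers. Thus the level difference of S100a8 was less than 0.6 on the log2 scale once the mix was held.

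**Figure D3:**
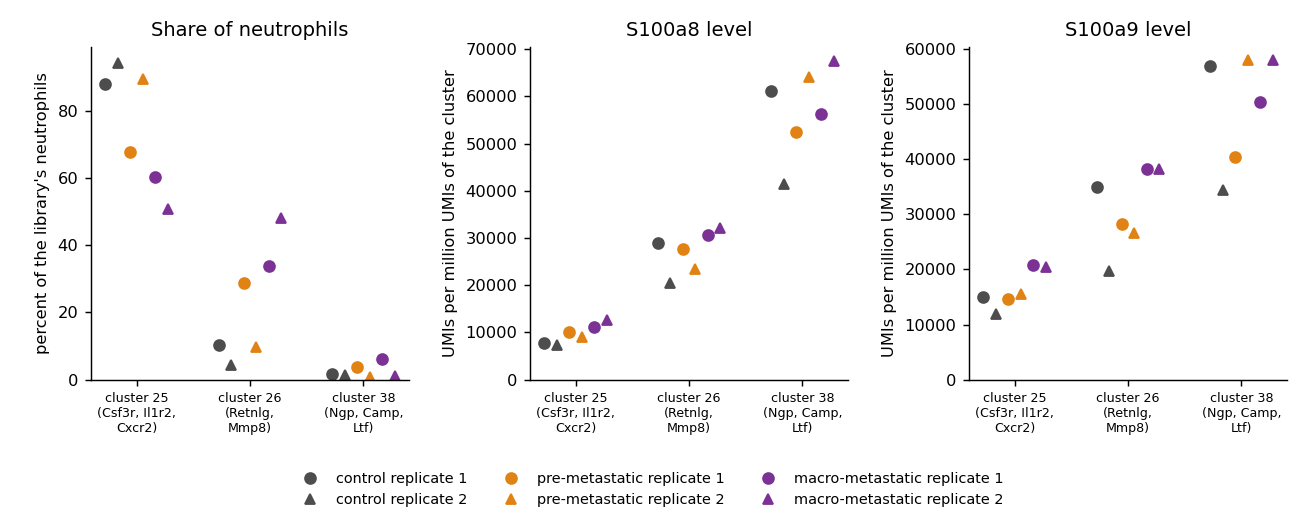
S100a8 and S100a9 levels in the 3 neutrophil clusters (CPM of the cluster, y axes) and the share of each cluster among neutrophils (percent), with 1 point per library. S100a8 rises from 7288 to 12694 CPM in the Csf3r cluster to 41397 to 67482 CPM in the granule protein cluster in every group.

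Cells outside the usual sources of calprotectin held its UMIs too, at a level that moved with the library. B, T, NK and endothelial cells, used here as the reference for UMIs outside the usual sources, pooled to 2.12 and 1.14 CPM of S100a8 in controls, then 36.7 and 22.5 at the pre-metastatic and 255 and 137 at the macro-metastatic stage. For S100a9 the pooled level was 1.09 and 2.86, 37.8 and 24.9, and 292 and 198 CPM. The groups did not overlap, which was not counted over other genes. In percent of the neutrophil level of the same library, S100a8 in these cells was 0.0150% and 0.0125%, 0.179% and 0.188%, and 0.975% and 0.557%. The 13 neutrophil marker genes stood, by their median, at 0.0236% and 0.0428%, 0.250% and 0.187%, and 0.597% and 0.463% of their neutrophil level in the same cells, so other neutrophil transcripts moved alongside, with S100a8 below that median in controls and above it in both macro-metastatic libraries. The part of free RNA in these levels was not tested.

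Relative to the whole library, which carries both the number of neutrophils and their level, the level in these cells moved less. Pooled S100a8 was 3.04% and 1.32% of the library level in controls, then 3.46% and 6.72% at the pre-metastatic and 7.46% and 5.91% at the macro-metastatic stage. The balance of the pair gives another reading. In macro-metastatic 1 S100a8 was 46.6% of the pair in these 4 classes (exact 95% binomial interval 45.6% to 47.7%) and 44.8% in its neutrophils, and in macro-metastatic 2 it was 40.9% (39.8% to 42.0%) and 44.2%. In pre-metastatic 1 it was 49.3% (45.2% to 53.3%) against 48.4%, and in pre-metastatic 2 47.5% (43.6% to 51.3%) against 40.3%. The controls held 50 and 70 UMIs of the pair in these classes and lay furthest from their neutrophils, on opposite sides, at 66.0% (51.2% to 78.8%) against 40.9% and at 28.6% (18.4% to 40.6%) against 41.0%. These intervals cover counting error only.

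The share of cells with a UMI moved in the same direction. Of B cells, 0.31% and 0.24% held a UMI of S100a9 in controls, then 6.39% and 2.31% at the pre-metastatic and 58.4% and 40.5% at the macro-metastatic stage. Thinned to 1000 UMIs per cell, the shares were 0.27% and 0.13%, 4.28% and 1.34%, and 33.1% and 20.2%, against 98.8% to 99.8% of neutrophils. The tables do not tell a UMI of free RNA in a B cell from one of the cell's own transcripts. In macro-metastatic 1, B cells averaged 0.910 UMIs of S100a8 and Kupffer cells 3.17, at median depths of 2172 and 15486 UMIs per cell.

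**Figure D4:**
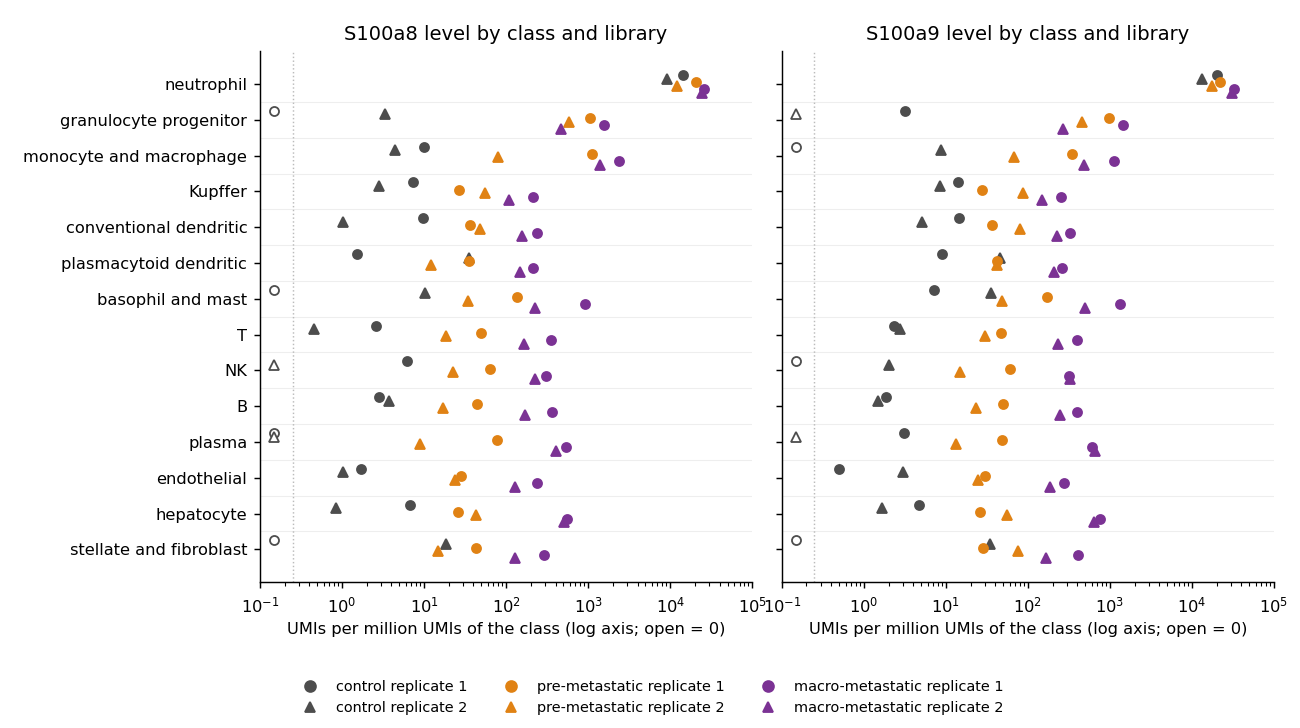
Level of S100a8 (left) and S100a9 (right) in CPM of the class (x axis, log scale, open markers at 0) for each class of cell (y axis), with 1 point per library coloured by group. Neutrophils stand apart at 9110 CPM or more of S100a8 in every library, and the macro-metastatic points lie above the control points in the 13 other classes that were tested.

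Both genes were tested in the 13 classes other than neutrophils that had at least 10 cells in every library, and passed the filter on low counts in all 13. From control to macro-metastatic livers S100a8 and S100a9 were each called higher in 13 of 13 classes, with edgeR log2 changes of 3.41 to 10.56 and 3.18 to 9.12. The largest were S100a8 in plasma cells and S100a9 in progenitors. Control sums held 0 and 1 UMIs of the genes in plasma cells, 1 and 1 in progenitors and 2 and 1 in NK cells. They held 3 and 2 in monocytes and macrophages and 2 of S100a8 in basophils and mast cells. There the filter was passed through the other groups, and the log2 changes are not measured folds. The control mean in B cells was only 3.26 CPM of S100a8 and 1.68 of S100a9, and in T cells 1.52 and 2.55. The log2 changes of B and T cells thus rest on low control levels too. Of the genes of a class, 3.47% (plasmacytoid dendritic cells) to 20.2% (Kupffer cells) were called higher. The changes were 6.29 and 7.53 in B cells, 7.07 and 6.94 in T cells, 7.26 and 7.10 in endothelium, 6.72 and 7.87 in NK cells and 5.14 and 4.35 in Kupffer cells for S100a8 and S100a9. Between these ends the share of genes called higher was 5.47% in monocytes and macrophages, 6.50% in hepatocytes, 6.65% in granulocyte progenitors, 6.73% in plasma cells, 8.57% in conventional dendritic cells, 9.57% in NK cells, 10.2% in B cells, 12.8% in stellate cells, 14.5% in T cells, 14.8% in basophils and mast cells and 15.1% in endothelium. Leaving out 1 library ended the calls of both genes in monocytes and macrophages (either control) and plasmacytoid dendritic cells (either macro-metastatic library) and that of S100a9 in granulocyte progenitors (either control). The S100a8 call in plasmacytoid dendritic cells was also lost with DESeq2 (adjusted p = 0.193), with the replicate block (0.0815) and without barcodes found in another library (0.0574).

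From pre-metastatic to macro-metastatic livers both genes were called higher in 11 of 13 classes, the exceptions being granulocyte progenitors and monocytes and macrophages. Genes called higher in this comparison made up 17.8% in Kupffer cells, 16.5% in basophils and mast cells, 10.9% in stellate cells, 10.1% in endothelium, 9.35% in T cells, 9.18% in conventional dendritic cells, 8.15% in monocytes and macrophages, 7.84% in B cells, 7.64% in NK cells, 5.42% in granulocyte progenitors, 5.20% in plasma cells, 3.52% in hepatocytes and 3.28% in plasmacytoid dendritic cells. Leaving out 1 library ended the calls of both genes in Kupffer cells (pre-metastatic 1, and for S100a9 also macro-metastatic 1), plasmacytoid dendritic cells (either macro-metastatic library) and stellate cells (pre-metastatic 2 for S100a8, pre-metastatic 1 or macro-metastatic 1 for S100a9), and that of S100a9 in conventional dendritic cells (macro-metastatic 1). With predicted doublets kept both hepatocyte calls were lost (log2 3.55 to 2.62 for S100a8 and 3.69 to 2.81 for S100a9, adjusted p = 0.0907 and 0.0681), and with cells assigned 1 by 1 from their markers, a marker gate per barcode, that of S100a9 in Kupffer cells (1.39, 0.0724). DESeq2 did not call S100a8 in basophils and mast cells (adjusted p = 0.0637), plasma cells (0.190) and plasmacytoid dendritic cells (0.309) or S100a9 in stellate cells (0.284).

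From control to pre-metastatic livers S100a8 was called higher in 3 classes (T cells, endothelium and granulocyte progenitors) and S100a9 in 5 (B cells, T cells, endothelium, granulocyte progenitors and hepatocytes), against 0.00% to 0.346% of genes called higher. That share was 0.346% in granulocyte progenitors, 0.243% in Kupffer cells, 0.228% in T cells, 0.206% in hepatocytes, 0.151% in endothelium, 0.0820% in B cells, 0.0397% in plasma cells, 0.0336% in NK cells and 0.0126% in stellate cells, and 0.00% in the other 4. Each of these 8 calls was lost on leaving out at least 1 library. With the marker gate per barcode the B cell change of S100a9 went from 4.33 to 1.97 on the log2 scale (edgeR adjusted p = 0.190). Without the cells that held a neutrophil transcript (a UMI of Csf3r, Cxcr2, Retnlg, Mmp9, Il1r2 or Ly6g) both genes lost their calls in T cells (adjusted p = 0.102 and 0.0677) and in endothelium (0.0613 and 0.123). The hepatocyte call was lost with the replicate block (0.114) and with predicted doublets kept (0.139). In endothelium, the S100a8 call had an adjusted p of 0.00920 in edgeR, and 0.190 without control 1 and 0.249 without control 2. Kupffer cells, endothelium and hepatocytes are each led by different clusters in control and macro-metastatic livers, so their class sums also mix different cells.

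The change in these classes was set against the change in neutrophils of the same libraries. From control to macro-metastatic livers the log2 change was larger than in neutrophils by 4.50 for S100a8 and 5.99 for S100a9 in B cells. In T cells it was larger by 5.81 and 5.85, in NK cells by 5.28 and 6.73 and in endothelium by 5.31 and 5.50. It was larger by 3.35 and 2.75 in Kupffer cells and by 6.63 and 6.09 in monocytes and macrophages. Control sums held only 2 and 1 UMIs of the genes in NK cells and 3 and 2 in monocytes and macrophages. The differences of both classes thus rest on few control UMIs. Those of B cells rest on low control levels too, at means of 3.26 CPM of S100a8 and 1.68 of S100a9. All 12 passed edgeR's interaction test, where 8.66% of genes passed in Kupffer cells, 5.62% in B cells, 5.14% in endothelium, 3.52% in T cells, 2.40% in NK cells and 0.584% in monocytes and macrophages. The Kupffer calls were lost without a control library (S100a8 without control 2, adjusted p = 0.0715; S100a9 without control 1 or 2, 0.0859 and 0.105), as were those of monocytes and macrophages (0.15 to 0.297). From control to pre-metastatic livers 5 of the 12 differences passed, those of both genes in T cells and endothelium and of S100a9 in B cells, where 0.231%, 0.114% and 0.117% of genes passed, against 0.0850% in Kupffer cells and 0.00% in NK cells and in monocytes and macrophages. Each of these 5 was lost without control 1 and without control 2. The B cell difference fell from 3.56 to 1.29 with the marker gate per barcode (edgeR adjusted p = 0.495). In that setting the differences of monocytes and macrophages over controls turned in sign at both stages. The T cell differences of S100a8 and S100a9 went from 3.54 and 3.52 to 2.76 and 2.40 without cells holding a neutrophil transcript (0.195 and 0.20) and to 3.01 and 2.53 with predicted doublets kept (0.0812 and 0.162). From pre-metastatic to macro-metastatic livers 8 of 12 passed, those of both genes in B, T, NK and endothelial cells, at 2.02 to 2.64 on the log2 scale, where 1.53%, 1.87%, 1.45% and 1.59% of genes passed. The S100a8 difference was lost in T cells without control 2 (adjusted p = 0.0680) and in endothelium without control 1, control 2 or macro-metastatic 1 (0.0847, 0.0837 and 0.125). Those of Kupffer cells, at 1.25 and 1.27 (edgeR adjusted p = 0.0885 and 0.0852), did not pass, where 5.81% of genes did, but were 3.34 and 3.62 and passed without cells holding a neutrophil transcript. They also passed without pre-metastatic 2 (2.23 and 2.35) or macro-metastatic 2 (1.69 and 1.63). Those of monocytes and macrophages, at 1.90 and 1.57 (0.267 and 0.27), did not pass either, where 0.423% of genes did, and passed without pre-metastatic 1 (3.50 and 2.63). With no filter on low counts all 4 passed, at 1.30 and 1.32 in Kupffer cells and 1.91 and 1.58 in monocytes and macrophages. Of 5334 genes tested in all of neutrophils and these 6 classes, 141 rose by more than 1 on the log2 scale in every class, both calprotectin genes among them.

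To set cells apart from this level, a cell was counted as above it when its S100a8 plus S100a9 UMIs per 10000 exceeded the 99th percentile of the B cells of its own library. That threshold was 0 in both controls, where a single UMI suffices, then 13.8 and 9.80 at the pre-metastatic and 42.7 and 30.1 at the macro-metastatic stage. The cells above it numbered 210 and 348 in controls, then 1661 and 1157 at the pre-metastatic and 3919 and 3957 at the macro-metastatic stage, or 2.29% and 3.45%, 16.5% and 11.2%, and 33.5% and 28.9% of all cells. They held 93.4% to 100% of the pair's UMIs. Neutrophils were 53.8% and 64.7% of these cells in controls, then 80.7% and 79.0% at the pre-metastatic and 87.5% and 90.9% at the macro-metastatic stage. This order turned with a fixed threshold of 20 per 10000, where neutrophils were 90.2% and 96.1%, 85.8% and 88.4%, and 78.4% and 87.1% of the cells above.

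Between 96.3% and 99.1% of neutrophils were above the threshold in each library. Monocytes and macrophages were above it in 1 of 48 and 3 of 58 cells in controls, 145 of 804 (18.0%) and 8 of 243 (3.29%) in pre-metastatic and 237 of 1196 (19.8%) and 70 of 516 (13.6%) in macro-metastatic libraries. Kupffer cells were above it in 0.325% and 0.419% of macro-metastatic cells, near the share that T cells (0.785% and 0.952%) and endothelium (0.498% and 0.799%) gave. Hepatocytes reached 25.7% and 12.8% there, from 9 of 35 and 17 of 133 cells. With the fixed threshold the monocyte and macrophage shares became 0.00% in both controls, 14.7% and 2.06%, and 30.2% and 18.8%, where B cells gave 0.00%, 0.639% and 0.154%, and 6.74% and 2.52%.

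Monocytes and macrophages, a cluster led by F13a1, Thbs1 and Vcan, carried the highest S100a8 level outside neutrophils in macro-metastatic livers. S100a8 was 9.84 and 4.41 CPM in controls, from 2 and 1 UMIs in 48 and 58 cells, then 1120 and 78.7 at the pre-metastatic and 2402 and 1407 at the macro-metastatic stage. S100a9 was 0.00 and 8.81, 350 and 68.4, and 1115 and 486 CPM. The pre-metastatic libraries differed from each other by more than 10-fold for S100a8, and the macro-metastatic ones lay above both. Against the pooled controls the S100a8 ratio was 126 (exact 95% counting interval 43.1 to 611) in pre-metastatic and 307 (105 to 1489) in macro-metastatic livers, and that of S100a9 61.2 (16.9 to 505) and 204 (56.6 to 1688). These intervals pool the UMIs of both libraries of a group. They cover counting error only and leave out the spread between libraries, such as that of the pre-metastatic ones. In these cells the S100a8 share of the pair was 76.2% and 53.5% at the pre-metastatic and 68.3% and 74.3% at the macro-metastatic stage, above the neutrophil share of 48.4%, 40.3%, 44.8% and 44.2% in the same 4 libraries.

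Many of these cells also held UMIs of the 6 neutrophil transcripts, which were not confined to neutrophils. In control 1 neutrophils held 42.1% of Retnlg, 48.4% of Mmp9, 54.5% of Csf3r, 75.3% of Il1r2, 83.1% of Cxcr2 and 95.2% of Ly6g UMIs. No UMI of the 6 was found in 24 of 48 and 28 of 58 control monocytes and macrophages. The control shares without one were 63.2% and 66.8% in Kupffer cells and 99.1% and 98.7% in B cells. Whether these UMIs were the cells' own was not tested. Leaving out monocytes and macrophages with a UMI of the 6 kept 172 and 80 pre-metastatic and 77 and 70 macro-metastatic cells. Their S100a8 level was 445 and 70.9 CPM and 1190 and 209 CPM. No UMI of either gene was left in the 24 and 28 control cells that stayed. The S100a8 share of the pair was then 73.7% and 82.8%, and 64.9% and 48.1%. With the marker gate per barcode, the macro-metastatic change over controls was 1.62 for S100a8 (edgeR adjusted p = 0.221) and 1.03 for S100a9 (0.395). In that assignment 99.6% and 97.6% of the pair's UMIs of control monocytes came from barcodes of the neutrophil clusters, which were 1.16% and 1.54% of them.

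**Figure D5:**
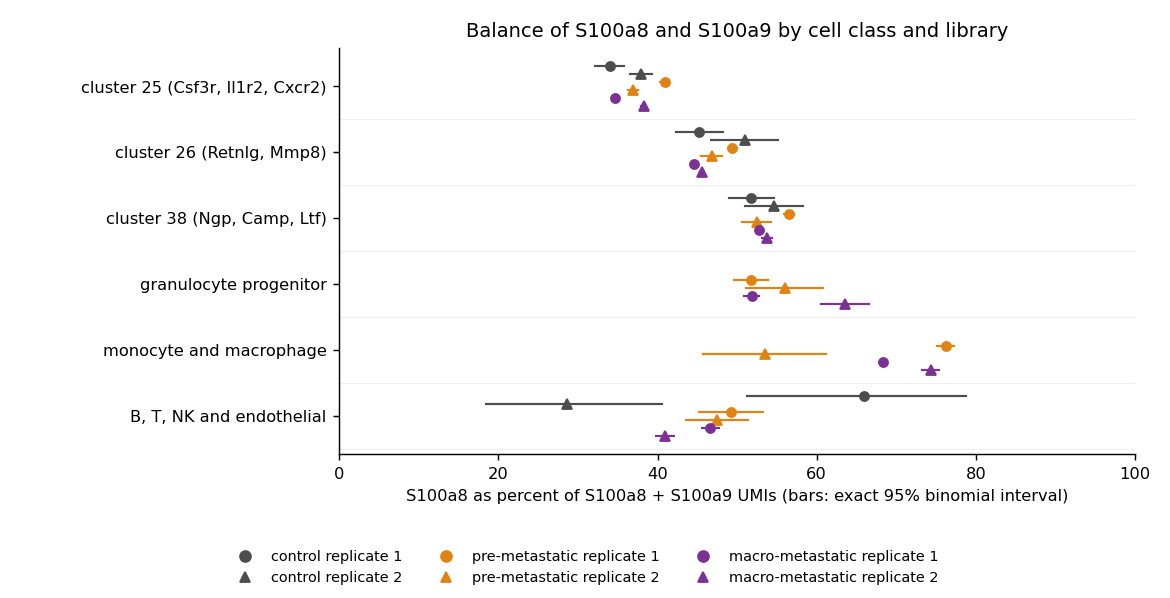
S100a8 as a percent of the UMIs of S100a8 plus S100a9 (x axis) in classes of cells (y axis), with 1 point per library and exact 95% binomial intervals for counting error. Monocytes and macrophages lie at 53.5% to 76.2%, the Csf3r cluster of neutrophils at 34.0% to 40.9% and the granule protein cluster at 51.8% to 56.5%, with control monocytes and progenitors, which held few UMIs, not plotted.

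Granulocyte progenitors, a cluster led by Mpo, Ctsg, Prtn3 and Elane, whose products are stored in primary granules, followed next. S100a8 was 0.00 and 3.31 CPM in controls, from 0 and 1 UMIs in 54 and 53 cells, then 1048 and 576 at the pre-metastatic and 1543 and 467 at the macro-metastatic stage. S100a9 was 3.20 and 0.00, 977 and 452, and 1432 and 268 CPM. Pre-metastatic and macro-metastatic libraries overlapped for both genes, and both groups lay above the controls. The ratio to pooled controls was 565 (exact 95% counting interval 101 to 22349) for S100a8 and 513 (91.9 to 20277) for S100a9 in pre-metastatic livers. Here too the intervals leave out the spread between libraries. With the marker gate per barcode the controls held only 2 and 1 progenitors, against 66 and 21 pre-metastatic and 195 and 53 macro-metastatic ones. Nearly all control cells of this cluster were thus not assigned as progenitors 1 by 1. The ratios and the calls may compare different cells, which was not tested. In edgeR the pre-metastatic change was called for S100a8 (adjusted p = 0.0115) and S100a9 (0.0284), and both calls were lost without either control (0.347 and 0.404 without control 1, 0.162 and 0.205 without control 2). Among progenitors with no UMI of the 6 neutrophil transcripts S100a8 was 0.00 in both controls, then 163 and 129 CPM at the pre-metastatic and 823 and 253 at the macro-metastatic stage.

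In Kupffer cells S100a8 was 7.26 and 2.81 CPM in controls, then 26.7 and 54.9 at the pre-metastatic and 211 and 107 at the macro-metastatic stage, and S100a9 was 14.1 and 8.42, 27.3 and 88.1, and 255 and 149. Pre-metastatic 2 was above pre-metastatic 1 here, the opposite of their order in the whole library. Among Kupffer cells with no UMI of the 6 neutrophil transcripts S100a8 was 14.1 and 5.44 CPM in the pre-metastatic libraries and S100a9 11.7 and 7.17, so that order turned. The macro-metastatic levels of the same cells were 219 and 99.8 CPM for S100a8, close to the values of all Kupffer cells.

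Ordered by mean S100a8 level in macro-metastatic livers, neutrophils at 25345 ± 1078 CPM (SD, n = 2) were followed by monocytes and macrophages at 1904 ± 703, granulocyte progenitors at 1005 ± 761, basophils and mast cells at 573 ± 491, hepatocytes at 535 ± 33.7 and plasma cells at 467 ± 88.9. Erythroid cells at 319 ± 145, B cells at 266 ± 135, NK cells at 266 ± 62.0, T cells at 257 ± 130, stellate cells at 207 ± 113, cholangiocytes at 201 ± 145, conventional dendritic cells at 198 ± 61.4, endothelium at 183 ± 79.2, plasmacytoid dendritic cells at 181 ± 48.4, Kupffer cells at 159 ± 73.4 and the colon carcinoma class at 89.8 ± 54.8 formed the lower end. Macro-metastatic 1 held only 3 cholangiocytes and 2 cells of the colon carcinoma class, and macro-metastatic 2 only 6 erythroid cells. The 2 libraries of neutrophils lay above those of every other class, and the ranges of each neighbouring pair below them overlapped. For S100a9, neutrophils at 31617 ± 808 CPM led again, and basophils and mast cells at 916 ± 585, progenitors at 850 ± 823 and monocytes and macrophages at 800 ± 445 overlapped. Plasma cells held no S100a8 UMI in controls, so that their macro-metastatic level was at least 105-fold higher, taking 3 UMIs over both controls as the floor. The colon carcinoma class was found almost only in macro-metastatic 2, with 424 cells. It held S100a8 at 129 CPM there, near the 137 CPM of the pooled B, T, NK and endothelial cells of that library.

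The 10 genes whose log2(CPM + 1) followed the mean of the pair most closely over 90 sums of a class in a library were Ngp and Clec4d (Pearson r = 0.893 each), Retnlg (0.892), Il1f9 (0.881), Slfn4 (0.877), Trem1 (0.864), Il1r2 (0.855), Slc7a11 (0.834), Asprv1 (0.832) and Slc16a3 (0.830). S100a8 and S100a9 correlated with each other at 0.965. The sums share libraries, and 17 classes entered. Of these genes Clec4d, Retnlg, Trem1 and Il1r2 are among the markers that named the neutrophil clusters.

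Genes of the calprotectin pathway were read in neutrophils from 6 lists, beside a median log2 change of 0.10 over all 7984 genes tested from control to macro-metastatic livers, where 9.59% of these genes were called and 5.11% were called higher. Of 14 other S100 genes 8 were tested and none was called by edgeR, with a median of 0.25, 2 at an unadjusted p below 0.05 and 0 called by DESeq2. Of 12 receptors and binding partners 11 were tested, 2 rose and 1 fell (median 0.27). Cd14, the co-receptor of Toll-like receptor 4, stood at 1400 and 1174 CPM in control neutrophils, then 2454 and 2967 at the pre-metastatic and 3466 and 3674 at the macro-metastatic stage, and rose by 1.58 on the log2 scale (edgeR adjusted p = 0.00282). Bsg, which encodes the S100A9-binding receptor basigin, rose by 2.03 (edgeR adjusted p = 0.0385) from 13.8 and 14.1 to 64.9 and 41.6 CPM. The control values of Bsg rest on very few UMIs. Emb, encoding embigin, fell by 0.89 (edgeR adjusted p = 0.0294).

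Of 13 transcription factors linked to calprotectin transcription 12 were tested, 4 rose and 1 fell (median 0.94), beside 9.59% of all genes called and 5.11% called higher. Cebpd, which encodes a C/EBP factor, fell by 1.90 on the log2 scale (edgeR adjusted p = 0.00381), from 621 and 766 CPM in controls through 605 and 405 to 150 and 201 in macro-metastatic neutrophils, a direction opposite to that of S100a8. Hif1a (1.19, adjusted p = 0.0158), Nfkb1 (0.99, 0.0233) and Rela (2.65, 0.0312) rose. Of 12 upstream cytokines and receptors 8 were tested, 1 rose and 2 fell (median 0.26). Il1b fell by 1.55 (0.00785), from 26353 and 24216 CPM through 14115 and 14727 to 9778 and 6307, and the interleukin-6 receptor gene Il6ra fell by 1.15 (0.0107). Il6 had no UMI in control neutrophils and was at least 3.37-fold higher in macro-metastatic ones, at 25.3 and 21.2 CPM.

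All 10 NADPH oxidase and arachidonate partners were tested, of which 4 rose (median 0.88), beside 5.11% of all genes called higher. Ncf4, Ncf1 and Cyba, which encode oxidase subunits, rose by 1.45 (edgeR adjusted p = 0.00776), 1.74 (0.0294) and 1.49 (0.0366), and Alox5ap, needed for leukotriene synthesis, by 0.92 (0.0185). All 12 secreted proteins induced by or acting beside calprotectin were tested and 5 rose (median 2.19). Wfdc17 rose by 4.19 (0.00164), from 248 and 105 CPM through 1696 and 898 to 2963 and 2659. The chemokine gene Cxcl2 rose by 1.94 (0.00274) and the siderophore-binding Lcn2 by 1.93 (0.0101), and Ccl2, with no UMI in control neutrophils, was at least 6.33-fold higher. Lcn2 and Mmp9 are also among the neutrophil markers.

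From control to pre-metastatic neutrophils no gene of the 6 lists was called by edgeR. At an unadjusted p below 0.05 there were 0 to 5 genes per list, most among the secreted proteins, and DESeq2 called 1 receptor or binding partner and 1 secreted protein. From pre-metastatic to macro-metastatic neutrophils the numbers that rose and fell were 1 and 0 of 8 other S100 genes, 2 and 0 of 11 receptors, 3 and 1 of 12 transcription factors, 1 and 1 of 8 cytokines and receptors, 3 and 0 of 10 oxidase and arachidonate partners and 5 and 2 of 12 secreted proteins, beside 10.1% of all genes called and 5.36% called higher. The S100 gene was S100a13, at 2.54 and 2.83 CPM before and 44.6 and 27.7 after, with controls at 13.8 and 10.5. Its control and pre-metastatic values rest on very few UMIs. Stat3 rose by 0.91 (edgeR adjusted p = 0.0434) and Cxcl1 by 2.58 (0.00423), and Cebpd fell by 1.52 (0.00644). Saa1, an acute-phase transcript of hepatocytes, fell by 2.76 (0.00390), from 204 and 151 to 16.6 and 35.9 CPM.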

How the data were processed

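Each library was deposited by the authors as UMI counts per gene and barcode, not normalized. CASAVA 1.8, UMI-tools and mm10 are named per the submitters' processing notes, while for the aligner and its gene models the sources used here give nothing. Every deposited barcode held at least 500 UMIs. Barcodes with at least 300 genes and below 25% mitochondrial UMIs were kept, predicted doublets (score over 0.25, 2.40% to 3.25% per library) were removed, and cells were clustered with scanpy 1.11.5 on 2000 variable genes without S100a8 and S100a9 (30 components, 15 neighbours, Leiden resolution 1). A cluster was named where at least 3 markers were detected and its leading genes did not go against the name. Mixed clusters, with at least 30% predicted doublets, and unnamed clusters entered no class test.

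UMI counts were summed per class and library and tested over all genes with edgeR 4.0.16 (filterByExpr, TMM, quasi-likelihood, Benjamini-Hochberg, threshold 0.05) in 1 fit of all 6 libraries with no covariate. The change in a class against neutrophils was an interaction term with the library as a block. Nothing states that the 2 libraries of a group are separate animals, so p-values measure the spread between these libraries, which may be technical. An exact permutation test of 2 against 2 cannot go below 0.3333 and was not used. The script was tested on simulated data. Alternatives were DESeq2 1.42.0, library size scaling, no filter, a replicate block, leaving out each library, a marker gate per barcode, keeping doublets, dropping barcodes found in more than 1 library, dropping cells with neutrophil transcripts, other thresholds and other thinning depths. Same-numbered libraries share only a number in the labels. Correlations of their deviations over genes were 0.120, 0.105 and 0.434 in neutrophils, all over 0.1, and 0.242, -0.0523 and 0.153 in whole libraries. The main fits, that of neutrophils included, take up no such pairing. The replicate block was run as an alternative to each class fit.

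The members, markers, gene lists and tests were chosen with earlier results of these data known. Named beside S100a8 and S100a9 are up to 4 called genes per list and comparison with the smallest adjusted p, and the 10 genes most like the pair. The cluster-mix levels and the cluster leaders were described after their values were seen. Positions are from GENCODE M21 and upstream sequences from RefSeq. Protein sequences were not used here.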

Additional observations from a re-analysis of the deposited data

Results flagged for a closer look

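The changes listed here are differences between a class and the neutrophils of the same libraries, tested as an interaction in edgeR, and each is larger in the class than in neutrophils. From control to macro-metastatic livers the log2 difference was 4.50 for S100a8 and 5.99 for S100a9 in B cells, 5.81 and 5.85 in T cells, 5.31 and 5.50 in endothelium, 5.28 and 6.73 in NK cells, 3.35 and 2.75 in Kupffer cells and 6.63 and 6.09 in monocytes and macrophages. Control sums held only 2 and 1 UMIs of the genes in NK cells and 3 and 2 in monocytes and macrophages. The differences of Kupffer cells and of monocytes and macrophages were not called without a control library. Those of monocytes and macrophages turned in sign with a marker gate per barcode. From control to pre-metastatic livers it was 3.56 for S100a9 in B cells, 3.54 for S100a8 and 3.52 for S100a9 in T cells, and 3.29 and 3.15 in endothelium. In that comparison B cells had 0.117% of genes past the threshold, T cells 0.231% and endothelium 0.114%, and each of these 5 differences was no longer called without control 1 and without control 2. That of S100a9 in B cells fell to 1.29 with a marker gate per barcode (edgeR adjusted p = 0.495), and those in T cells to 2.76 and 2.40 without cells holding a neutrophil transcript (0.195 and 0.20) and to 3.01 and 2.53 with predicted doublets kept (0.0812 and 0.162). From pre-metastatic to macro-metastatic livers the difference was 2.40 and 2.44 in B cells, 2.26 and 2.33 in T cells, 2.02 and 2.35 in endothelium and 2.14 and 2.64 in NK cells, and those of S100a8 in T cells and endothelium were not called without a control library. The median level of 13 neutrophil markers in B, T, NK and endothelial cells, in percent of their neutrophil level, moved in the same libraries from 0.0236% and 0.0428% to 0.250% and 0.187% and to 0.597% and 0.463%, and the part of free RNA in these differences was not tested.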

How the results depend on the processing

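Over the alternatives run, the whole-library and neutrophil changes kept their direction. In whole libraries the pre-metastatic change passed with no filter on low counts (log2 3.23 for S100a8 and 2.84 for S100a9) and with DESeq2 (3.22 and 2.83), and that of S100a9 with the replicate block (2.73). On leaving out 1 library the pre-metastatic change ranged from 2.20 to 3.84 for S100a8 and from 2.22 to 3.29 for S100a9, the macro-metastatic change over controls from 5.08 to 5.79 and from 4.85 to 5.46, and that over pre-metastatic from 1.61 to 3.27 and from 1.88 to 2.96. In neutrophils the macro-metastatic change over controls no longer passed with library size scaling (1.13 and 0.920), and ranged from 0.999 to 1.60 and from 0.786 to 1.40 on leaving out 1 library. With no filter, pre-metastatic S100a8 passed (0.710), as did both genes from pre-metastatic to macro-metastatic (0.742 and 0.776). The latter also passed with the replicate block (0.716 and 0.702), and for S100a9 with DESeq2 (0.750) and the marker gate per barcode (0.748). On leaving out 1 library it ranged from 0.329 to 1.13 and from 0.553 to 0.875, and the pre-metastatic change over controls from 0.118 to 1.05 and from 0.103 to 0.710. In other classes the sign turned for progenitors from pre-metastatic to macro-metastatic (S100a9 -0.0532 without pre-metastatic 2, S100a8 -0.681 and S100a9 -1.30 without macro-metastatic 1, up to 1.11 and 1.18 without macro-metastatic 2) and for pre-metastatic plasmacytoid dendritic cells (S100a8 -0.658 and S100a9 -0.126 without control 1, S100a8 -0.463 without pre-metastatic 1, up to 3.67 and 2.15 without control 2). The number of genes called from control to pre-metastatic whole libraries was 70, against 187 with the replicate block and 1155 with DESeq2. With the marker gate per barcode, monocytes and macrophages against neutrophils turned (pre-metastatic -0.669 and -0.925, macro-metastatic -0.366 and -0.708). The causes were not tested. Depth limits the control classes. Of those tested, the control sums held 0 to 3 UMIs of a gene in monocytes, progenitors, plasma cells, NK cells and, for S100a8, basophils and mast cells. The log2 changes of these classes carry that limit, as do the differences from neutrophils in monocytes and NK cells. Control B cells held little as well, at a mean of 1.68 CPM of S100a9. The replicate block could not enter the class against neutrophil fit, which has the library as its block.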

Other observations

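Calprotectin was also read in cells that entered no test. Clusters with many predicted doublets held S100a8 at 220 and 729 CPM in controls, then 1095 and 739 at the pre-metastatic and 1375 and 1904 at the macro-metastatic stage, above the level of every named class other than neutrophils in controls. Unnamed clusters held 25.1 and 5.10, 66.4 and 30.5, and 312 and 302 CPM. Among cholangiocytes, the bile duct epithelium, the 32 cells of control 1 held 20 UMIs of S100a8 and 38 of S100a9, while the 34 cells of control 2 held 0 of either. Erythroid cells had no UMI of either gene in the controls and 32 and 40 UMIs in the pooled macro-metastatic libraries, at least 9.61-fold and 12-fold higher taking 3 UMIs over both controls as the floor. Cells thinned to 1000 UMIs showed a UMI of S100a9 in 38% and 24.2% of macro-metastatic monocytes and macrophages, against 33.1% and 20.2% of B cells, a gap narrower than that of the levels.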
